A study of Mus musculus with 24 samples.

Results

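Hippocampal gene expression after CM-414, a compound known in the sources used here only by its code name, was compared with vehicle on 8 of the 24 arrays of the series: CM-414 replicas 1 to 4 and the vehicle replicas 4 to 7. The vehicle replicas were chosen because they share with the CM-414 arrays a high level of Snord13, a small nucleolar RNA. Snord13 lay between 10.76 and 11.46 in the CM-414 arrays and between 10.35 and 11.15 in vehicle 4 to 7, against 7.30 to 8.39 in vehicle 1 to 3, on the log2 scale used throughout. The labels name no batch, so this division into array sets comes from the data. Combination 4 to 7, from mice given vorinostat (a histone deacetylase inhibitor) together with tadalafil (a phosphodiesterase 5 inhibitor), fall into the same set and served as a second comparison.

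Mice of all 3 groups carried the Swedish mutant human amyloid precursor protein transgene, which in Tg2576 is driven by a prion promoter, and the labels give their strain as B6.Cg-Tg(APPswe)E1-2Dbo/J and their age as 16 to 18 months. No wild-type hippocampus was among the arrays, so every difference is one between transgenic mice. Treatment with CM-414, with vorinostat plus tadalafil, or with the vehicle, which the labels call saline, lasted 4 weeks. A 4-week washout followed before the hippocampus was taken, so the arrays describe tissue some weeks after the last dose. For its own groups the paper describes fear conditioning and water maze tests during treatment, and a further water maze test after the washout. It does not report a CM-414 group. No source used here gives the dose of CM-414. Each array is a biological replica by its label. The p-values set a difference of means against the spread between these replicas, taken as equal in the groups compared.

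The hippocampus is built of layers of excitatory neurons, the granule cells of the dentate gyrus and the pyramidal cells of the CA fields, and it borders on the thalamus, the neocortex and the choroid plexus. When a hippocampal neuron fires, calcium and cyclic nucleotides activate kinases that phosphorylate CREB, the cAMP response element binding protein, and within minutes a set of activity-induced genes is transcribed. Some of these genes encode transcription factors such as Fos, Egr1 and Nr4a1, and others encode effectors that change the synapse or turn the signal off, such as Arc and Dusp6. Histone deacetylases remove the acetyl groups that keep such genes accessible, and phosphodiesterases break down the cyclic nucleotides, which is why both enzyme families are studied for memory.

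CM-414 3 was set aside in a second fit by its level of Tcf7l2, a transcription factor of thalamic neurons, which among the 8 arrays was above 9 in this array alone. Tcf7l2 was at 6.63, 6.22, 10.05 and 7.10 in CM-414 1 to 4, against 6.28, 6.34, 6.22 and 6.22 in vehicle 4 to 7. Other genes set the array apart too. Slc17a6, the vesicular glutamate transporter of thalamic neurons, was at 11.40 in CM-414 3 and at 8.14 to 8.54 in the other CM-414 arrays, and Pmch, a neuropeptide gene of the lateral hypothalamus, was at 8.92 against 4.21 to 4.76. Neurod6, a transcription factor of pyramidal neurons, was at 5.60 in this array against 8.58 to 9.51 in the other CM-414 arrays. Relative to the vehicle mean, the 14 thalamus markers averaged 1.99 in this array, or 1.85 over the 13 without Tcf7l2, and the 7 CA1 markers averaged -1.75. CM-414 3 correlated with the vehicle arrays at 0.963 to 0.967 across genes, whereas the other CM-414 arrays did so at 0.981 to 0.991 and the vehicle arrays among themselves at 0.989 to 0.992. In CM-414 3, 654 genes lay more than 1 from the median of the other arrays, against 18 to 103 in each of the rest. Differences below are for all 8 arrays unless another setting is named.

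CM-414 4 shared part of this pattern. Avp, the vasopressin gene, was at 7.21, 6.85, 10.61 and 8.99 in CM-414 1 to 4, against 6.98, 6.69, 6.83 and 6.63 in vehicle 4 to 7. Trh, the gene of thyrotropin-releasing hormone, was at 6.13, 6.70, 8.99 and 8.56 in CM-414 1 to 4 and at 6.25, 6.01, 6.19 and 6.05 in vehicle 4 to 7. The glycine receptor gene Glra3 was at 6.60, 7.18, 9.09 and 8.61 in CM-414 1 to 4, against 6.91, 6.68, 6.43 and 6.03 in vehicle 4 to 7. The transcription factor Foxp2 and the GABA-A receptor subunit Gabrq likewise were high in CM-414 3 (8.21 and 8.05) and CM-414 4 (7.12 and 6.23), and lay at 5.03 to 5.63 and at 4.11 to 4.70 in the vehicle arrays. Dentate granule cell markers averaged 0.61 and 0.72 below the vehicle mean in these 2 arrays, and 0.45 and 0.03 above it in CM-414 1 and 2. Thalamus markers, by contrast, were only 0.13 above vehicle in CM-414 4. Leaving out both arrays was a setting chosen after seeing the data and leaves 2 CM-414 arrays. Some genes named below or above had an unadjusted p under 0.05 in all 8 arrays but not without CM-414 3. These were Avp, Trh, Prkar2b, Ece2, Prkg2, Bace1, Chgb and Siglech. Without both arrays Glra3, Klf2, Aph1c, Hspb1, Nr1d1, Fkbp5, Fcrls, Syn3, Grin3a, Ppp1r9b, Adcyap1 and Mir9-2 were not at that p either.

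Choroid plexus markers varied widely within both groups. Ttr, the transthyretin gene that defines this epithelium, was at 11.07, 13.81, 11.42 and 11.33 in CM-414 1 to 4, against 12.13, 13.19, 13.61 and 13.63 in vehicle 4 to 7. All 12 measured markers of 15 listed had a lower mean after CM-414, with a median difference of -0.36, and CM-414 2 was above the vehicle mean by 0.93 while CM-414 1, 3 and 4 were 0.79 to 1.00 below it. In the vehicle arrays these means were -0.76, -0.11, 0.39 and 0.49, so that vehicle 4 was as low as CM-414 3. Without CM-414 3, 11 of 12 were lower (median -0.35), but without CM-414 3 and 4 the count was 7 of 12, with a median of -0.03. Of the 12, 0 reached an unadjusted p under 0.05 in either limma fit. In bulk tissue, fewer cells of a type and less RNA per cell cannot be told apart. The plot of gene lists in single arrays shows these patterns side by side.

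**Figure D1:**
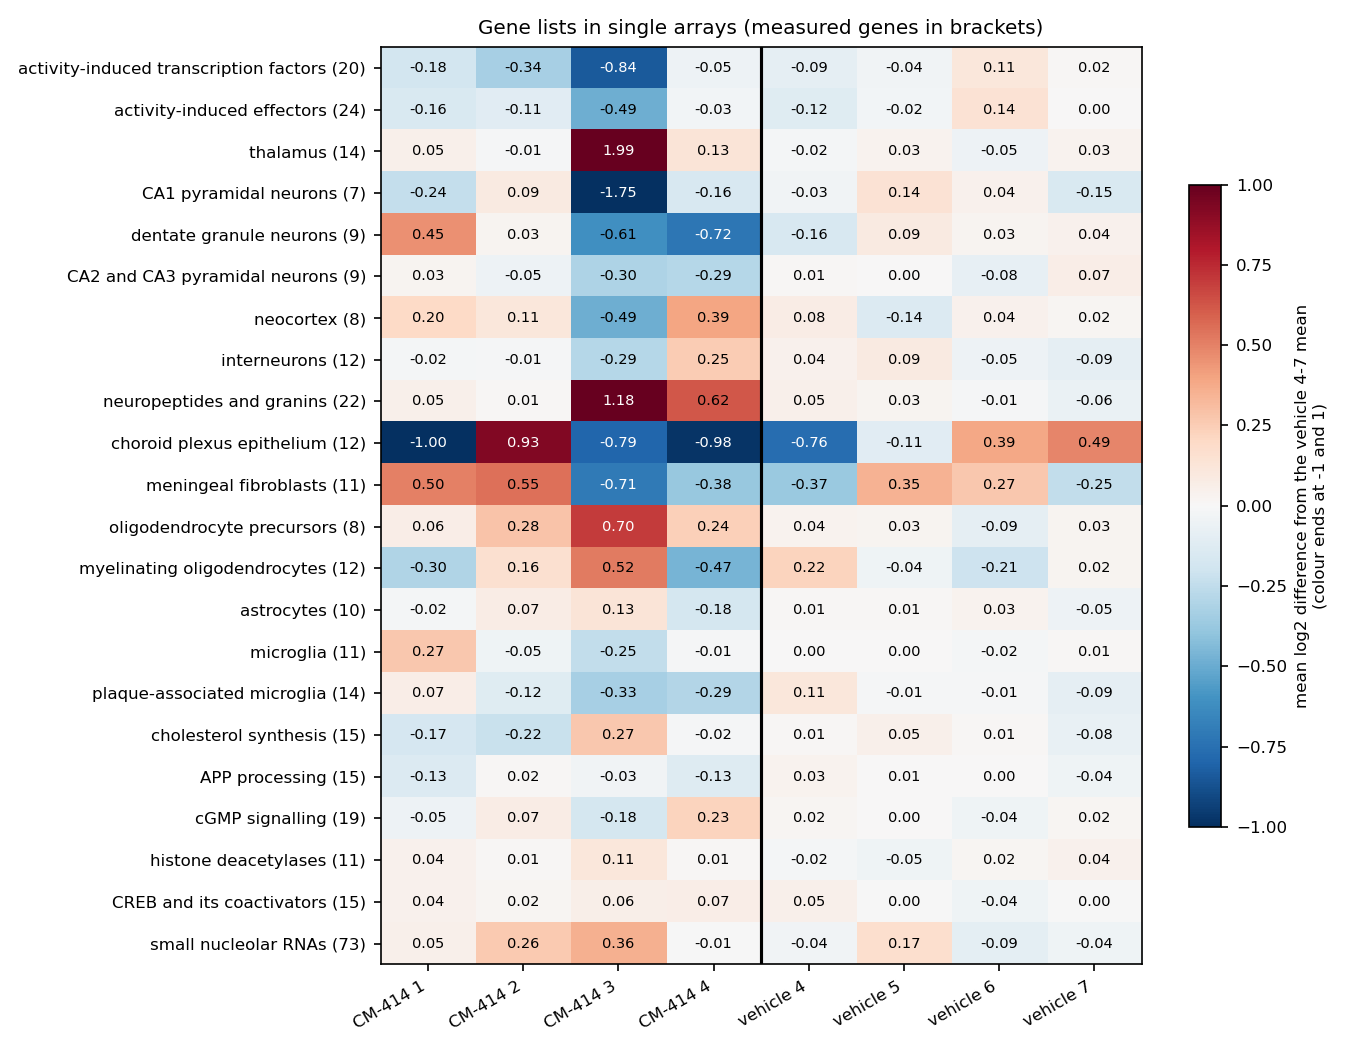
Mean log2 difference of each gene list (rows, number of measured genes in brackets) from its vehicle 4 to 7 mean in the CM-414 arrays (left) and the vehicle arrays (right). Red is above and blue below the vehicle mean, and colours end at -1 and 1. The thalamus list stands at 1.99 and the CA1 list at -1.75 in CM-414 3, and the dentate list at -0.61 and -0.72 in CM-414 3 and 4.

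Across the genome no gene passed the adjusted threshold. Of 19986 genes tested with limma, 0 (0%) had an adjusted p under 0.05 in CM-414 against vehicle with all 8 arrays, where the smallest adjusted p was 0.780, and 0 (0%) without CM-414 3, where it was 0.756. At an unadjusted p under 0.05 there were 670 genes higher (3.35%) and 549 lower (2.75%) after CM-414 with all 8 arrays, and 677 higher (3.39%) and 613 lower (3.07%) without CM-414 3. Together these were 6.10% and 6.45% of the genes. Of the arrays left out in turn, CM-414 2 gave the largest number, with 2009 genes at that p without it and 2613 without CM-414 2 and 3, and 0 past the adjusted p in both. Genes at that p in both fits numbered 746, which are 61.2% of those with all 8 arrays and 57.8% of those without CM-414 3. Without both CM-414 3 and CM-414 4, 0 (0%) passed the adjusted p, and 586 genes were higher (2.93%) and 480 lower (2.4%) at an unadjusted p under 0.05.

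The CM-414 arrays lay wholly above the vehicle arrays in 437 genes (2.19%) and wholly below them in 396 (1.98%). Without CM-414 3, these counts were 744 (3.72%) and 745 (3.73%), with 3 arrays against 4. A mean difference above 0.5 on the log2 scale was seen in 185 genes (0.926%) and one below -0.5 in 159 (0.796%). Without CM-414 3 the counts were 96 (0.48%) and 40 (0.2%). Of 19 genes that differed by more than 1, CM-414 3 was the array farthest from the median in 17, and 2 still differed by more than 1 without it. The median difference over all genes was 0.00 with all arrays and -0.01 without CM-414 3.

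The CM-414 replicas were more spread than the vehicle replicas. The median standard deviation of a gene was 0.185 over the 4 CM-414 arrays and 0.154 over the 3 left without CM-414 3, against 0.119 over vehicle 4 to 7 and 0.117 over combination 4 to 7. A gene's standard deviation was larger after CM-414 in 72.4% of genes, and in 62.6% without CM-414 3. The 95% interval of a difference had a median half-width of 0.262 with all arrays and 0.252 without CM-414 3, so smaller differences could not be separated from 0 in a typical gene even before adjustment.

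**Figure D2:**
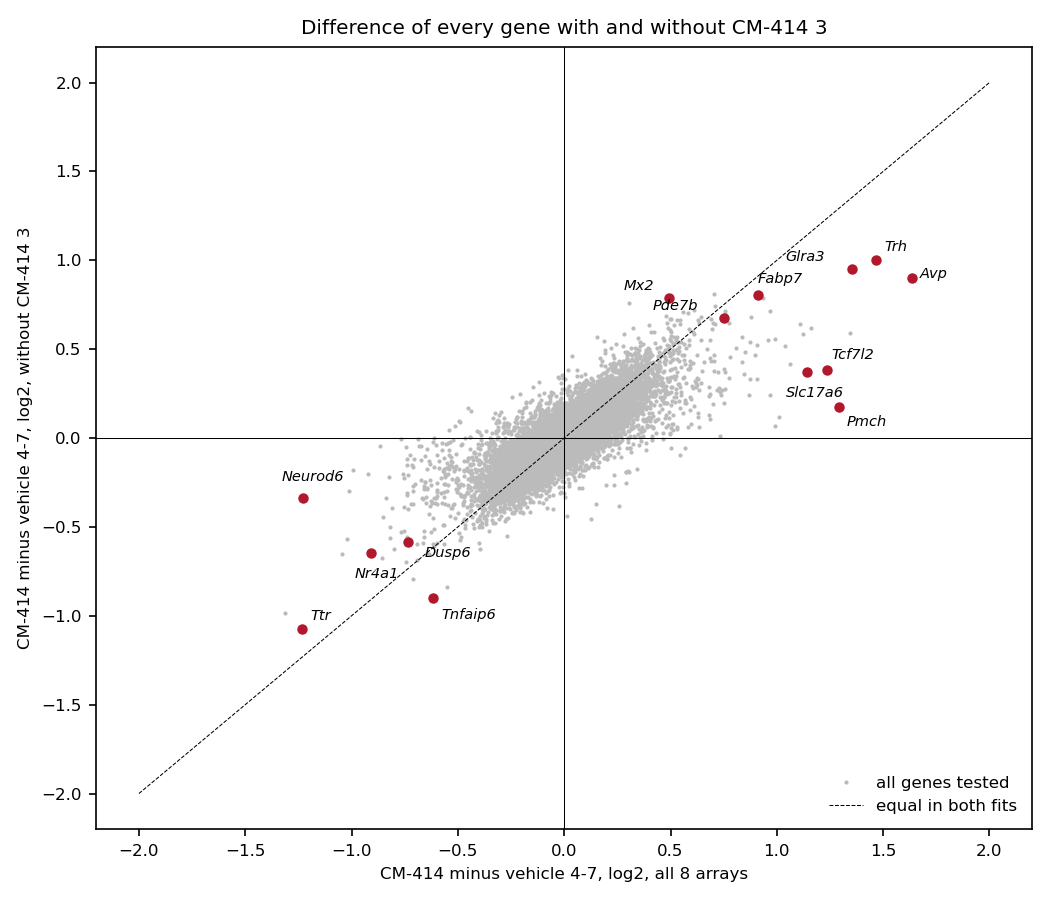
Difference of CM-414 minus vehicle 4 to 7 (log2) for each of the 19986 genes, with all 8 arrays on the horizontal axis and without CM-414 3 on the vertical axis. Grey points are genes, red points are named genes, and the dashed line marks equal values. Pmch, Tcf7l2 and Slc17a6 lie far below the line at the right, while Fabp7, Pde7b and Dusp6 lie close to it.

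Activity-induced transcription factors were below vehicle in 19 of 20 cases after CM-414, with a median log2 difference of -0.38, against a median of 0.00 over all genes tested. Of the 20, 0 passed the adjusted p, 6 were lower at an unadjusted p under 0.05, where 2.75% of all genes were, and 6 lay wholly below the vehicle arrays, as did 1.98% of all genes. Without CM-414 3, 17 of 20 were below vehicle, with a median of -0.19, 7 of them at an unadjusted p under 0.05 and 7 without overlap, beside 3.07% and 3.73% of all genes. Without CM-414 3 and 4, 16 of 20 were below vehicle (median -0.23). The mean of the list differed among the CM-414 arrays, at -0.18, -0.34, -0.84 and -0.05 from the vehicle mean in CM-414 1 to 4, against -0.09, -0.04, 0.11 and 0.02 in vehicle 4 to 7. CM-414 4 thus lay within the vehicle range for the list as a whole. A low list mean was not particular to CM-414. It was 7.47, 7.32, 7.33 and 7.18 in combination 4 to 7, against 7.37 to 7.58 in vehicle 4 to 7. In CM-414 1 to 4 it was 7.28, 7.13, 6.63 and 7.42. Vehicle 3, outside this array set, was at 6.64.

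Nr4a1, an orphan nuclear receptor needed for lasting memory in mice, was at 8.42, 8.49, 7.55 and 8.89 in CM-414 1 to 4, against 9.06, 8.93, 9.62 and 9.36 in vehicle 4 to 7. Every CM-414 array was below every vehicle array, and the difference was -0.91 (standard error 0.26) with all arrays and -0.65 (standard error 0.18) without CM-414 3, with unadjusted p of 0.00527 and 0.00437. Junb, a subunit of the AP-1 transcription factor, was at 7.62, 7.34, 7.16 and 7.86 in CM-414 1 to 4, against 7.94, 7.99, 7.97 and 7.997 in vehicle 4 to 7. The vehicle arrays were tightly grouped for Junb and CM-414 4 came close to them. Atf3, a stress-responsive member of the ATF/CREB family, was at 6.46, 6.49, 6.25 and 6.35 in CM-414 1 to 4, against 6.64, 6.82, 7.02 and 6.65 in vehicle 4 to 7. Klf4 and Klf2, zinc finger factors, differed by -0.35 (standard error 0.10) and -0.41 (standard error 0.14), without overlap, and by -0.28 and -0.27 without CM-414 3 and 4. Egr1, the zinc finger factor of memory consolidation, differed by -0.56 (standard error 0.19), with CM-414 4 at 8.63 inside the vehicle range of 8.56 to 8.88, and by -0.37 without CM-414 3. Fos did not follow the others: it was at 6.15, 5.81, 6.71 and 6.96 in CM-414 1 to 4, against 6.68, 6.34, 6.73 and 6.55 in vehicle 4 to 7, and the groups overlapped. Its difference was -0.16 with all arrays, -0.26 without CM-414 3 and -0.59 without CM-414 3 and 4.

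The effectors were more mixed. Of 24 measured, 17 were below vehicle after CM-414 (median -0.12) and 14 without CM-414 3 (median -0.11). In each fit 0 passed the adjusted p, and 3 were lower at an unadjusted p under 0.05. Over all genes, 2.75% were lower at that p with all arrays and 3.07% without CM-414 3. Dusp6, the phosphatase that switches off the kinase ERK, was at 8.54, 8.78, 8.12 and 8.80 in CM-414 1 to 4, against 9.01, 9.32, 9.52 and 9.31 in vehicle 4 to 7. The groups did not overlap, and the difference was -0.73 (standard error 0.16; unadjusted p = 0.00112) with all arrays and -0.59 (standard error 0.13) without CM-414 3, but -0.35 when the probe sets of the gene were averaged. Arc, a synaptic protein that controls the removal of AMPA receptors, was at 9.37, 8.86, 8.20 and 9.22 in CM-414 1 to 4, against 9.48, 9.47, 9.97 and 9.81 in vehicle 4 to 7, a difference of -0.77 (standard error 0.23) and of -0.53 (standard error 0.16) without CM-414 3. Plk2, a kinase of synaptic scaling, was at 10.24, 10.35, 8.51 and 10.04 in CM-414 1 to 4, against 10.45, 10.55, 10.62 and 10.48 in vehicle 4 to 7. Its difference of -0.74 was -0.31 without CM-414 3 and -0.23 without CM-414 3 and 4, and the groups did not overlap in either case.

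**Figure D3:**
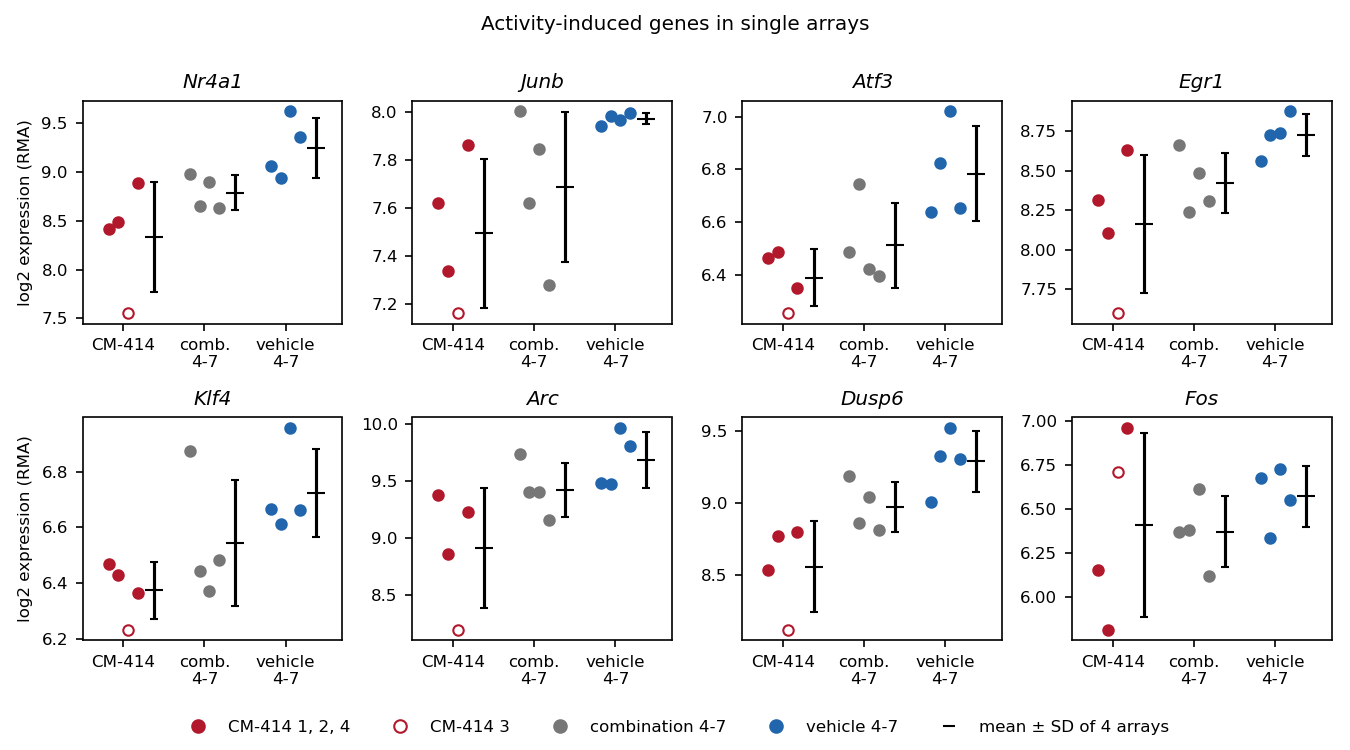
Log2 expression of 8 activity-induced genes in each array, with CM-414 at the left, combination 4 to 7 in the middle and vehicle 4 to 7 at the right. Points are arrays, the open point is CM-414 3, and the bar is the mean with its standard deviation over 4 arrays. CM-414 lies below vehicle without overlap for Nr4a1, Junb, Atf3, Klf4, Arc and Dusp6, and overlaps it for Egr1 and Fos.

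The promoters of 3 of these genes are shown because they share the letters that CREB and its relatives bind. Each sequence, from RefSeq on GRCm38.p6, runs from 250 bases before to 50 bases after the start of the gene, and capitals mark TGACG or its reverse complement CGTCA, the short form of the cAMP response element TGACGTCA.
Nr4a1: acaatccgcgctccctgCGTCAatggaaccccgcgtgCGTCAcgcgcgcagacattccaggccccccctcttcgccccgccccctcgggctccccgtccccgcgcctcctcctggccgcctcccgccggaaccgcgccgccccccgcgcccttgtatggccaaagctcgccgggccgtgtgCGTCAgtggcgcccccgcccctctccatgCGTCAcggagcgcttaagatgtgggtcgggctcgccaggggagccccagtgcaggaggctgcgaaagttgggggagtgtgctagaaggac
Junb: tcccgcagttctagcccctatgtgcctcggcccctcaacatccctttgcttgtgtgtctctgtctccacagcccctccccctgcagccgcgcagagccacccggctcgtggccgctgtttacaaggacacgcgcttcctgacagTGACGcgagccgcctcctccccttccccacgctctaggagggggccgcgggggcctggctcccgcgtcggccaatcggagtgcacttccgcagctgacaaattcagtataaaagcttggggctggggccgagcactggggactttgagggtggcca
Atf3: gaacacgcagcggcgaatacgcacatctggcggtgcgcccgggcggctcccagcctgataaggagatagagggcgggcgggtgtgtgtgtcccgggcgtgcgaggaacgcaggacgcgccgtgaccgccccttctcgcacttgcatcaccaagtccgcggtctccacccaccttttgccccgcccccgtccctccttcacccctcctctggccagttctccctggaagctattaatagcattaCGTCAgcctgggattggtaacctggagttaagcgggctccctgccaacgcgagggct
The Nr4a1 window lies at chr15:101266596-101266895 on the plus strand, the Junb window at chr8:84978699-84978998 on the minus strand and the Atf3 window at chr1:191183284-191183583 on the minus strand. Nr4a1 holds 4 short sites, Junb 1 and Atf3 1, and none of the 3 holds the full element. Of the 44 measured activity-induced genes, 35 had a promoter in the table, of which 24 (68.6%) held the short site on either strand and 4 (11.4%) the full element, against 20.8% and 1.79% of all 32851 promoters. Of the 7 genes that were below vehicle without overlap and at an unadjusted p under 0.05 in both fits, 6 had a promoter in the table, and 5 of these held the short site. Dusp6 was the one without it in this window. A match of letters is a description and not a bound site.

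Among genes above vehicle, Fabp7 had the smallest p with all arrays. It encodes a fatty acid binding protein of astrocytes and neural progenitors and was at 10.30, 10.29, 10.82 and 10.61 in CM-414 1 to 4, against 9.50, 9.73, 9.33 and 9.83 in vehicle 4 to 7. The means were 10.51 ± 0.26 after CM-414 and 9.60 ± 0.23 in vehicle (SD over 4 arrays each). The difference was 0.91 (95% interval 0.57 to 1.25) with all arrays and 0.80 without CM-414 3, at an unadjusted p of 1.18e-04 and an adjusted p of 0.780 with limma. All CM-414 arrays were also above combination 4 to 7, at 9.64 to 9.92. The 10 measured astrocyte markers did not share this, with a median difference of 0.03 and 0 at an unadjusted p under 0.05 with all arrays.

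Pde7b, a phosphodiesterase specific for cAMP, was at 9.62, 9.41, 9.96 and 9.95 in CM-414 1 to 4, against 8.81, 9.02, 8.99 and 9.12 in vehicle 4 to 7. It differed by 0.75 (95% interval 0.45 to 1.05) and by 0.68 without CM-414 3, without overlap. Pde7b was at 9.12 to 9.43 in combination 4 to 7 and at 9.29 to 9.76 in vehicle 1 to 3, and both overlapped the CM-414 arrays. Ep400, an ATPase that exchanges histone variants in chromatin, was at 10.71, 10.21, 10.60 and 10.61 in CM-414 1 to 4, against 9.99, 9.92, 9.64 and 9.83 in vehicle 4 to 7. Its difference was 0.69 (95% interval 0.41 to 0.97) and 0.67 without CM-414 3. It was 0.33 when the 2 probe sets of the gene were averaged, so the probe sets disagree on its size. Olig2, a transcription factor of the oligodendrocyte lineage, was at 8.58, 8.96, 9.02 and 8.68 in CM-414 1 to 4, against 8.38, 8.14, 8.01 and 8.42 in vehicle 4 to 7, a difference of 0.57 (standard error 0.13) and of 0.51 without CM-414 3. Olig2 was at 8.39 to 8.67 in combination 4 to 7 and at 8.28 to 8.74 in vehicle 1 to 3, and both overlapped the CM-414 arrays.

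The other protein-coding genes among the 10 of smallest p above vehicle with all arrays did not overlap with vehicle either. A4galt, which makes the globoside Gb3, differed by 0.53, Idua, a lysosomal enzyme that degrades glycosaminoglycans, by 0.44, and Lyrm7, an assembly factor of respiratory complex III, by 0.63. Cblif, the intrinsic factor gene of the stomach, differed by 0.45 and lay at 5.42 to 5.66 after CM-414 and at 4.95 to 5.14 in vehicle. The vomeronasal receptor gene Vmn1r91 was at 4.53 to 4.90 after CM-414 and at 3.74 to 4.18 in vehicle, close to the expression floor of 4. In the 16 other arrays of the series Vmn1r91 was at 4.26 to 4.75, also above vehicle 4 to 7. A hippocampus is not known to use either gene. Gm5771, a predicted gene, differed by 0.59, and combination 4 to 7 was above vehicle too, at 5.68 to 5.77 against 5.20 to 5.63. Without CM-414 3, the smallest p of all belonged to Mx2, a transcribed pseudogene in the RefSeq annotation. Mx2 was at 4.97, 4.98, 3.75 and 4.83 in CM-414 1 to 4, against 3.89, 4.25, 4.33 and 4.08 in vehicle 4 to 7, so that it differed by 0.79 without CM-414 3 and by 0.49 with it. Mx2 too lay close to the expression floor of 4. Ankrd34c differed by 0.56 without CM-414 3 and by 0.99 with it, and did not overlap in either case. Accsl, Trabd2b and I830077J02Rik, also among the smallest p above vehicle without CM-414 3, differed by 0.46, 0.41 and 0.71 there. Accsl was at 4.12 to 4.31 in vehicle, close to the same floor.

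**Figure D4:**
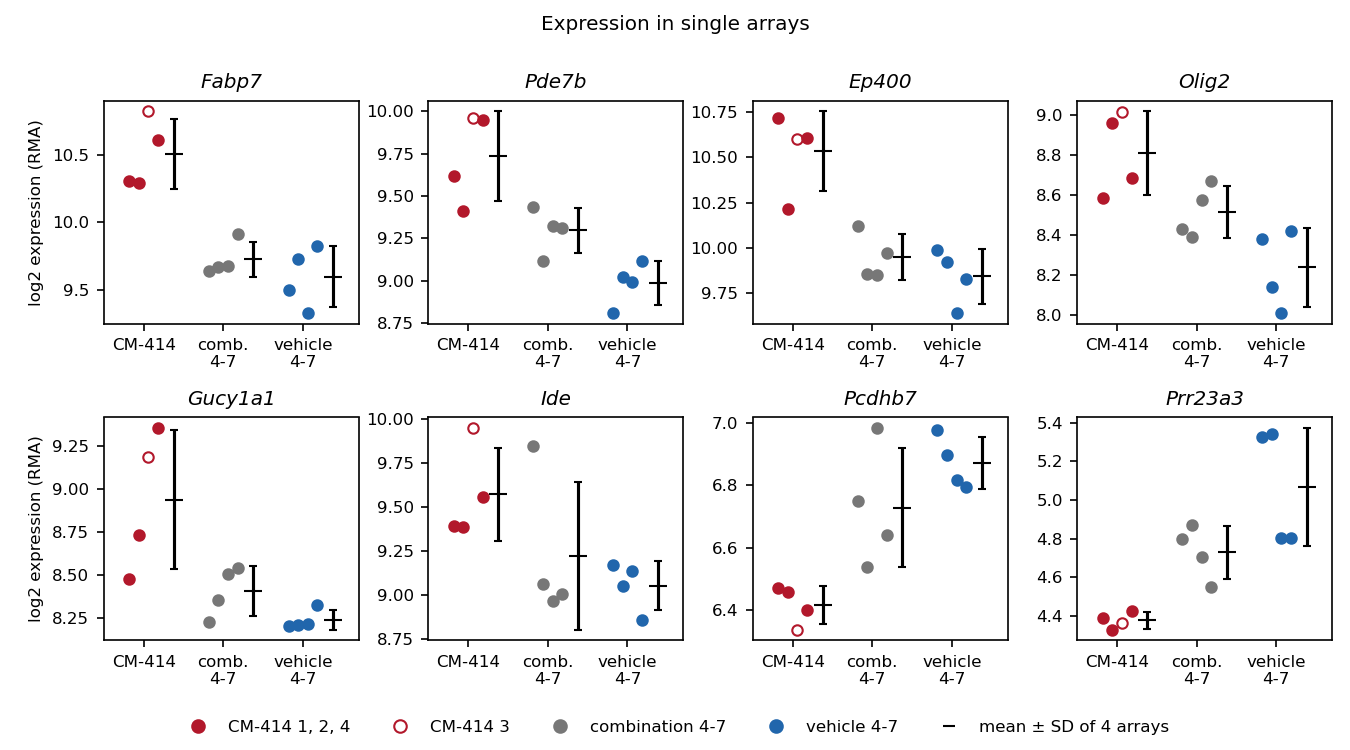
Log2 expression of 8 genes in each array, with CM-414 at the left, combination 4 to 7 in the middle and vehicle 4 to 7 at the right. Points are arrays, the open point is CM-414 3, and the bar is the mean with its standard deviation over 4 arrays. In the first 6 genes every CM-414 array lies above every vehicle array, and in Pcdhb7 and Prr23a3 every one lies below.

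Below vehicle, Pcdhb7 had the smallest p with all arrays. This member of the clustered protocadherins, adhesion proteins that give neurons their identity, was at 6.47, 6.46, 6.34 and 6.40 in CM-414 1 to 4, against 6.98, 6.90, 6.82 and 6.80 in vehicle 4 to 7. The difference was -0.46 (95% interval -0.64 to -0.27) and -0.43 without CM-414 3, and the replicas of each group lay close together. In the 16 other arrays of the series Pcdhb7 was at 6.21 to 6.99, and in vehicle 1 to 3 among them at 6.26 to 6.78. Both ranges hold the CM-414 values. Prr23a3 was at 4.33 to 4.43 after CM-414, close to the expression floor of 4, and at 4.80 to 5.34 in vehicle, a difference of -0.69. The adhesion receptor gene Adgrf4 differed by -0.69, and by -0.43 without CM-414 3 and 4. Hsf2, a heat shock transcription factor, was at 7.08, 7.30, 7.19 and 7.21 in CM-414 1 to 4, against 7.55, 7.62, 7.57 and 7.45 in vehicle 4 to 7, and differed by -0.35 in both fits. Plekha1, an adaptor that binds phosphoinositides, differed by -0.34, and Zswim6 by -0.53. Sult5a1, a sulfotransferase gene, differed by -0.39, and the predicted genes Gm14744 and Gm11562 by -0.48 and -0.64. All of these lay below vehicle without overlap. Gm11562 was at 3.79 to 4.35 after CM-414, around the expression floor of 4, and at 4.54 to 4.97 in vehicle.

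Some genes separated the groups only once CM-414 3 was left out. Tnfaip6, a secreted protein that binds hyaluronan and is induced by inflammation, was at 6.29, 6.30, 7.24 and 5.72 in CM-414 1 to 4, against 7.13, 7.11, 6.89 and 6.88 in vehicle 4 to 7. Its difference was -0.90 (standard error 0.15; unadjusted p = 1.49e-04) without CM-414 3 and -0.62 with all arrays. It lay at 6.02 to 6.68 in combination 4 to 7. Paip2b, a repressor of translation, was at 6.35, 6.36, 7.07 and 6.34 in CM-414 1 to 4, against 6.91, 6.71, 6.80 and 6.68 in vehicle 4 to 7, with differences of -0.42 and -0.25. Coq10b, a protein that binds coenzyme Q, differed by -0.43 without CM-414 3 and by -0.34 with it, and Cyp2a12, a cytochrome of the liver, by -0.47 and -0.37. Cyp2a12 was at 4.04 to 4.60 after CM-414, close to the expression floor of 4.

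For the enzymes that the other drugs of the study inhibit, the differences were small or within the spread of the arrays. Hdac2, the deacetylase that restrains synaptic plasticity in mice, was at 8.81, 8.78, 8.67 and 8.74 in CM-414 1 to 4, against 8.84, 8.92, 8.93 and 8.85 in vehicle 4 to 7. That difference of -0.13 (95% interval -0.31 to 0.04) did not overlap but did not reach an unadjusted p of 0.05. Hdac1, Hdac3 and Hdac6 differed by -0.08, -0.01 and -0.01, with intervals of -0.52 to 0.35, -0.22 to 0.20 and -0.25 to 0.23, so that none of the 3 has a settled direction. Of 11 measured histone deacetylases, 7 were above and 4 below vehicle (median 0.03), and 0 reached an unadjusted p under 0.05. Creb1 was at 8.61, 8.69, 8.62 and 8.73 in CM-414 1 to 4, against 8.56, 8.39, 8.57 and 8.48 in vehicle 4 to 7, a difference of 0.16 (95% interval -0.03 to 0.35). Its acetyltransferase partner Crebbp differed by -0.0023 (95% interval -0.23 to 0.23). Among the 15 measured genes of CREB and its coactivators, Prkar2b, a regulatory subunit of protein kinase A, was the 1 at an unadjusted p under 0.05, at 0.35 (standard error 0.15), and the median was 0.00. Of all genes, 3.35% were higher at that p. Prkar2b was at 0.29 without CM-414 3, where 0 of the 15 were at that p, and at 0.13 without CM-414 3 and 4.

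In the cGMP pathway, nitric oxide activates guanylate cyclase, cGMP activates protein kinase G, and phosphodiesterases end the signal. Gucy1a1, the alpha subunit of the cyclase, was at 8.48, 8.73, 9.18 and 9.35 in CM-414 1 to 4, against 8.20, 8.21, 8.22 and 8.33 in vehicle 4 to 7. The groups did not overlap, and the difference was 0.70 (standard error 0.17) with all arrays, 0.62 without CM-414 3 and 0.37 without CM-414 3 and 4, the arrays in which it was highest. Prkg2, a protein kinase G, was at 7.17 and 7.30 in CM-414 3 and 4, and at 5.84 and 6.33 in CM-414 1 and 2, against 5.80 to 6.30 in vehicle 4 to 7. Pde5a, the phosphodiesterase that tadalafil inhibits, was at 6.69, 6.91, 6.39 and 6.63 in CM-414 1 to 4, against 6.96, 6.73, 7.22 and 6.89 in vehicle 4 to 7, a difference of -0.29 (95% interval -0.60 to 0.01) with overlapping groups. Over the 19 measured genes of the pathway the median was 0.06, with 10 genes above vehicle, and 2 were higher at an unadjusted p under 0.05. Of all genes, 3.35% were higher at that p.

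Amyloid is cut from the precursor protein App by beta-secretase (Bace1) and by gamma-secretase, whose subunits include the Aph1 proteins, and is degraded by peptidases such as Ide. App was at 12.08, 12.40, 12.25 and 12.22 in CM-414 1 to 4, against 12.38, 12.26, 12.31 and 12.27 in vehicle 4 to 7, a difference of -0.07 (95% interval -0.27 to 0.14). The array's App probe set was not tested for reading the human transgene. Of 15 measured genes of App processing, 11 were below vehicle (median -0.10), with 0 past the adjusted p and 2 lower and 1 higher at an unadjusted p under 0.05. Over all genes, 2.75% were lower and 3.35% higher at that p. Without CM-414 3, 13 of the 15 were below (median -0.11) and 3 were lower at that p, beside 3.07% of all genes. Aph1b was at 7.53, 7.83, 7.79 and 7.73 in CM-414 1 to 4, against 7.98, 7.97, 8.09 and 7.85 in vehicle 4 to 7, whereas its close relative Aph1c was at 7.94, 8.15, 8.14 and 8.22 in CM-414 1 to 4, against 7.75, 7.68, 7.87 and 8.03 in vehicle 4 to 7. The differences were -0.25 (standard error 0.10) and 0.28 (standard error 0.11), and paralogs this alike can share probe signal. Bace1 differed by -0.18 without overlap (unadjusted p = 0.0494 with limma, 0.0805 without CM-414 3), but by 0.02 when its 2 probe sets were averaged.

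Ide, the insulin-degrading enzyme, was at 9.40, 9.39, 9.95 and 9.56 in CM-414 1 to 4, against 9.17, 9.05, 9.14 and 8.86 in vehicle 4 to 7. It lay above vehicle without overlap, by 0.52 (standard error 0.14) with all arrays, 0.39 without CM-414 3 and 0.34 without CM-414 3 and 4. Ece2, an endothelin-converting peptidase, was at 6.96, 6.89, 7.50 and 7.14 in CM-414 1 to 4, against 6.76, 6.58, 6.88 and 6.89 in vehicle 4 to 7, where the lowest CM-414 array barely cleared the highest vehicle array. Its difference was 0.35 with all arrays, 0.22 without CM-414 3 and 0.15 without CM-414 3 and 4. Both belong to the 11 measured genes of amyloid clearance and lipoproteins, of which these 2 were at an unadjusted p under 0.05 and whose median was 0.00. Over all genes, 3.35% were higher at that p. Without CM-414 3, 1 of the 11 (Ide) was higher at that p and 1 lower, beside 3.39% and 3.07% of all genes. The lower one was the peptidase gene Mme, which differed by -0.24 without CM-414 3 and by -0.0089 with all arrays. Mapt, the tau gene, differed by 0.11 (95% interval -0.11 to 0.34) and the tau kinase Gsk3b by -0.09 (95% interval -0.29 to 0.11). Of 16 measured tau genes 0 reached an unadjusted p under 0.05.

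Counts of synaptic genes depended on CM-414 3. Postsynaptic scaffold and spine genes were below vehicle in 18 of 23 cases (median -0.14) with all arrays, and in 9 of 23 (median 0.05) without CM-414 3, where the list mean had been 0.73 below the vehicle mean. Ppp1r9b, which encodes spinophilin, was at 9.66, 9.36, 9.01 and 9.30 in CM-414 1 to 4, against 9.88, 9.67, 9.62 and 9.86 in vehicle 4 to 7, a difference of -0.43 and of -0.25 without CM-414 3 and 4. Syn3, a synapsin of vesicles, was at 9.15, 8.64, 9.26 and 9.23 in CM-414 1 to 4, against 8.54, 8.59, 8.70 and 8.68 in vehicle 4 to 7, with CM-414 2 inside the vehicle range. The NMDA receptor subunit Grin3a differed by 0.51 with all arrays, and by 0.19 without CM-414 3 and 4.

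Neuropeptide genes were above vehicle in 17 of 22 cases (median 0.34), and in 18 of 22 without CM-414 3 (median 0.17), but in 13 of 22 without CM-414 3 and 4 (median 0.03). The mean of the list was 1.18 and 0.62 above the vehicle mean in CM-414 3 and 4, and 0.05 and 0.01 in CM-414 1 and 2. Pdyn, the prodynorphin gene of granule cells, differed from the rest of the list: it was at 6.87, 6.80, 6.91 and 6.76 in CM-414 1 to 4, against 6.67, 6.51, 6.56 and 6.35 in vehicle 4 to 7, evenly above vehicle by 0.31 (standard error 0.09). Adcyap1, the gene of the peptide PACAP, was at 6.42, 6.18, 7.77 and 6.84 in CM-414 1 to 4, against 6.16, 5.82, 6.02 and 6.09 in vehicle 4 to 7, a difference of 0.78 with all arrays and 0.27 without CM-414 3 and 4. Chgb, chromogranin B of secretory granules, was at 11.35, 11.37, 10.81 and 10.94 in CM-414 1 to 4, against 11.45, 11.53, 11.39 and 11.44 in vehicle 4 to 7.

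All 8 oligodendrocyte precursor markers were above vehicle with all arrays (median 0.25), 2 of them at an unadjusted p under 0.05. Of all genes, 3.35% were higher at that p. Without CM-414 3, 7 of 8 were above vehicle (median 0.15). Myelin genes had a median of 0.00 over 12 genes with all arrays and of -0.20 without CM-414 3, where all 12 lay below vehicle and 0 reached an unadjusted p under 0.05. Microglia markers had a median of -0.08 over 11 genes, with 1 higher and 1 lower at an unadjusted p under 0.05. Among all genes, 3.35% were higher and 2.75% lower at that p. Without CM-414 3 the microglia median was 0.05, with 3 higher and 0 lower at that p, beside 3.39% and 3.07% of all genes. Fcrls, a microglial receptor, was at 8.26, 7.50, 7.72 and 8.13 in CM-414 1 to 4, against 7.09, 7.52, 7.22 and 7.78 in vehicle 4 to 7. Siglech, of the same list, went the other way, by -0.39 with all arrays and -0.26 without CM-414 3, with overlapping groups. Ifit1, an interferon-induced antiviral gene, was at 6.23, 6.21, 6.19 and 6.41 in CM-414 1 to 4, against 6.06, 5.85, 5.88 and 5.82 in vehicle 4 to 7, and lay above vehicle by 0.35 (standard error 0.09) without overlap, while the 14 measured interferon genes had a median of 0.06. Neocortex markers were above vehicle in 6 of 8 cases (median 0.20). Rorb, a layer 4 transcription factor, differed by 0.45 without overlap, and by 0.26 without CM-414 3. The factor Mef2c differed by 0.19 with all arrays and 0.55 without CM-414 3.

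Stress and metabolic genes gave small differences. Xbp1, a transcription factor of the unfolded protein response, was at 9.96, 9.83, 9.79 and 9.92 in CM-414 1 to 4, against 9.49, 9.44, 9.70 and 9.59 in vehicle 4 to 7, above vehicle by 0.32 (standard error 0.09) without overlap. Sdf2l1, an endoplasmic reticulum chaperone factor, was at 7.75, 7.76, 7.70 and 7.76 in CM-414 1 to 4, against 7.64, 7.34, 7.50 and 7.45 in vehicle 4 to 7. The small heat shock gene Hspb1 differed by 0.28 without overlap, and by 0.16 without CM-414 3 and 4. These were the 3 of 16 measured stress genes at an unadjusted p under 0.05, all higher, where 3.35% of all genes were higher at that p, and the list median was 0.05. Fkbp5, a cochaperone induced by glucocorticoids, was at 7.36, 7.56, 6.85 and 7.37 in CM-414 1 to 4, against 7.60, 7.81, 7.63 and 7.75 in vehicle 4 to 7, below vehicle without overlap by 0.41 with all arrays and 0.27 without CM-414 3. The glucocorticoid list as a whole had a median of -0.03. The clock repressor Nr1d1 was above vehicle by 0.26 and the clock list had a median of -0.06.

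Cholesterol synthesis genes depended on CM-414 3, in which their mean was 0.27 above vehicle, against -0.17, -0.22 and -0.02 in CM-414 1, 2 and 4. With all arrays 9 of 15 were below vehicle (median -0.03, 1 at an unadjusted p under 0.05), and without CM-414 3 13 of 15 (median -0.14, 3 at that p). Over all genes, 2.75% and 3.07% were lower at that p in the same fits. Hmgcs1, which makes the precursor of mevalonate, was at 10.38, 10.54, 10.73 and 10.55 in CM-414 1 to 4, against 10.89, 10.74, 10.87 and 10.67 in vehicle 4 to 7. Stard4, a cholesterol carrier, was at 6.52, 6.43, 7.40 and 6.58 in CM-414 1 to 4, against 7.08, 6.83, 7.04 and 6.78 in vehicle 4 to 7, a difference of -0.20 with all arrays and -0.42 without CM-414 3. Fdps, which makes farnesyl diphosphate, differed by -0.17 and -0.30.

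Small nucleolar RNAs, many of which guide the modification of ribosomal RNA, were above vehicle in 57 of 73 cases (median 0.17). Of these, 18 were at an unadjusted p under 0.05 and 8 without overlap, beside 3.35% and 2.19% of all genes. Without CM-414 3 it was 49 of 73 (median 0.08), 13 of them at that p, beside 3.39% of all genes. Their mean was 0.05, 0.26, 0.36 and -0.01 from the vehicle mean in CM-414 1 to 4, against -0.04, 0.17, -0.09 and -0.04 in vehicle 4 to 7. Snord118 was at 6.12, 6.14, 6.34 and 6.38 in CM-414 1 to 4, against 5.87, 5.75, 5.91 and 5.68 in vehicle 4 to 7, a difference of 0.44 (standard error 0.10). Snord90 differed by 0.50, and by 0.32 without CM-414 3 and 4. This class also divides the array sets of the series, and the part of RNA preparation in its level was not tested. Among microRNA genes, Mir504 was at 6.76, 6.24, 5.98 and 6.58 in CM-414 1 to 4, against 5.73, 5.73, 6.01 and 5.97 in vehicle 4 to 7. Mir9-2 was at 7.69, 7.75, 6.35 and 7.54 in CM-414 1 to 4, against 9.79, 9.20, 7.94 and 7.65 in vehicle 4 to 7, where the high values of vehicle 4 and 5 stood outside the 7.19 to 8.16 of the 16 other arrays of the series.

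Set against combination 4 to 7, which share their vehicle arrays with CM-414, 0 genes (0%) differed at an adjusted p under 0.05 with limma, and 942 were higher (4.71%) and 903 lower (4.52%) after CM-414 at an unadjusted p under 0.05. The smallest adjusted p was 0.495. Without CM-414 3, 0 genes passed it and 1692 were at an unadjusted p under 0.05. Fabp7 differed by 0.78 (standard error 0.14) between CM-414 and the combination, Ep400 by 0.58 (standard error 0.12) and A4galt by 0.47 (standard error 0.11). Hsf2 differed by -0.34 (standard error 0.07), Plekha1 by -0.32 (standard error 0.07) and Hmgcs1 by -0.37 (standard error 0.09). Fcrls differed by 0.80 (standard error 0.23), and Siglech, also a microglia marker, by -0.60 (standard error 0.19). The mean of Nr4a1 was 8.33 after CM-414, 8.79 after the combination and 9.24 in vehicle, and that of Dusp6 was 8.56, 8.98 and 9.29 in the same groups. The difference between CM-414 and the combination was -0.45 (standard error 0.23) for Nr4a1 and -0.42 (standard error 0.15) for Dusp6. Without CM-414 3 these were -0.19 (standard error 0.17) for Nr4a1 and -0.27 (standard error 0.13) for Dusp6. Tnfaip6 stood at nearly the same mean after both treatments with all arrays, with a difference of -0.0014 (standard error 0.25), and of -0.29 (standard error 0.18) without CM-414 3.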

How the data were processed

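Expression in the hippocampus was read on the Affymetrix Mouse Gene 2.0 ST array. The authors normalized them by RMA (version not given in the sources used here) and deposited log2 expression values for 41345 probe sets and 24 arrays, with medians of 5.90 to 5.97 and 84.4 to 85.5% of probe sets above 4 in the 8 arrays used. GEO's annotation of the array gave 1 gene for 23521 probe sets, several for 1820 and none for 16004. A probe set naming 1 gene was kept when above 4 (16 before taking logs) in at least 2 CM-414 and at least 2 vehicle arrays, and the one of highest mean was taken per gene, which left 19986 genes, 17257 of them protein-coding.

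CM-414 was compared with vehicle 4 to 7 by limma 3.58.1 in R 4.3.3 with eBayes, 95% intervals and Benjamini-Hochberg adjusted p-values (threshold 0.05), with and without CM-414 3. The comparison with combination 4 to 7 was fitted with vehicle 4 to 7 included. Of 39 gene lists, 1 (red blood cells) had none of its 6 genes measured. The arrays, lists and tests were chosen with earlier results of these data known. Named genes are, per fit, the 10 protein-coding genes of smallest p in each direction, the 10 of largest difference and 3 non-coding genes, the genes of the study's targets, and 3 per list; others, such as Fos, Egr1, Klf2, Klf4, Nr4a3, Bace1, Mme, Chgb, Mir504 and Mir9-2, were named after their values were seen. Alternatives were other floors, the mean of the probe sets, protein-coding genes only, a trended and robust prior, array weights, centred arrays, added arrays, a choroid plexus covariate and each array left out. The scripts were tested on simulated data. The number of arrays limits the precision.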

Additional observations from a re-analysis of the deposited data

Results flagged for a closer look

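In 17 of 182 groups of 4 arrays examined for the named genes, 1 array stood far from the other 3, by a gap whose share of the whole range of the group passed Dixon's 95% critical value. Chance flags about 1 in 20 groups of genes not chosen by their values, and many of these genes were chosen by theirs, so the count has no such rate to be set against. The array was CM-414 3 in 9 of the 17.

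CM-414 3 was the high array for Slc17a6 (a gap of 0.877 of the range), Pmch (0.883), Paip2b (0.975), Stard4 (0.838) and Rorb (0.84), and the low one for Plk2 (0.831), Mir9-2 (0.855), Mx2 (0.875) and Nr4a3 (0.905). CM-414 2 was the high array for Ttr (0.871) and Plekha1 (0.93), and the low one for Nr1d1 (0.853). CM-414 4 was the high array for Hspb1 (0.921). Among the vehicle arrays, vehicle 6 was the high one for Zswim6 (0.869), Ankrd34c (0.912) and Klf4 (0.849), and vehicle 7 for Gucy1a1 (0.886).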

How the results depend on the processing

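The count of 0 genes past the adjusted p held in 52 alternatives over the 3 comparisons and in all but 1 of those run. The exception was CM-414 against vehicle with all 24 arrays and the array set as a block, where 1 gene passed, Ep400 at 0.72 with an adjusted p of 0.0482 (1864 genes at an unadjusted p under 0.05). Leaving out 1 array in turn gave 0 to 0 genes in each comparison. At an unadjusted p under 0.05 it gave 825 to 2009 genes with all 8 arrays as the start, 952 to 2613 without CM-414 3 and 1260 to 3054 against the combination, each time with the most when CM-414 2 was left out. With the choroid plexus marker mean as a covariate 821 genes were at that p. Differences of genes near 0 changed sign. Hdac1, at -0.08, was at 0.044 against vehicle 1 to 7, 0.020 with the choroid plexus covariate, 0.17 without CM-414 3 and 4, and from -0.22 to 0.067 with 1 array left out. Crebbp, at -0.0023, was at 0.029 with array weights, 0.022 with the array set as a block, 0.11 against vehicle 1 to 7, 0.059 without CM-414 3 and 4, and from -0.067 to 0.069 with 1 array left out. Bace1, at -0.18, was at 0.017 with the mean of its probe sets. With 1 array left out, Hdac3 ranged from -0.067 to 0.030, Hdac6 from -0.10 to 0.048, Fos from -0.35 to 0.036 and Mef2c from -0.092 to 0.55. The cause was not tested. No other gene named in the report and run under these alternatives changed sign. Medians of gene lists stayed within the spread of the arrays in 490 cases and moved in 4: the heat shock list, at 0.05, was at 0.18 without CM-414 1, the clock list, at -0.06, at -0.03 without CM-414 4 and -0.10 without CM-414 3 and 4, and the tau list, at -0.04, at 0.00 without CM-414 3 and 4. No paired analysis was possible because the groups compared share fewer than 2 replicate numbers.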

Other observations

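Meningeal fibroblast markers, which lie outside the comparisons above, divided the CM-414 arrays. Their mean over 11 genes was 0.50, 0.55, -0.71 and -0.38 from the vehicle mean in CM-414 1 to 4, against -0.37, 0.35, 0.27 and -0.25 in vehicle 4 to 7. Cytosolic ribosomal protein genes had a median difference of 0.03 over 65 genes and genes of the nuclear respiratory chain one of -0.02 over 58. Olfactory and vomeronasal receptor genes, which a hippocampus is not known to use, had a median of 0.01. Of 521 such genes, 13 were higher and 11 lower at an unadjusted p under 0.05, beside 3.35% and 2.75% of all genes.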
